A study of Caenorhabditis elegans with 11 samples.

Results

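The genes described here are 10 lysozyme genes of the nematode Caenorhabditis elegans, selected by name from a count table of 46926 genes: lys-1, lys-2, lys-3, lys-4, lys-5, lys-6, lys-7, lys-8, lys-10 and ilys-3. All 10 were present in the count table and in the TPM table (a count corrected for gene length and library depth, comparable between genes), and all 10 were among the 16013 genes tested. The samples were 11 RNA sequencing libraries from whole larvae at the L4 stage, fed HT115 E. coli, with RNA extracted by Trizol. The double mutant, atfs-1(null) with nhr-180(cmh19), had 3 libraries, nhr-180(cmh19) alone had 2, atfs-1(null) alone had 3 and wildtype had 3. The labels name the wildtype libraries N2, the standard laboratory strain, call the libraries of a genotype biological replicates and name neither the lesion of cmh19 nor an allele number for the atfs-1 null. ATFS-1 is the transcription factor that turns on mitochondrial stress genes, and NHR-180 belongs to the nuclear hormone receptors.

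Lysozymes cut the peptidoglycan of bacterial cell walls, and worms, which eat bacteria, use them both to digest food and to resist infection. The lys genes of C. elegans encode proteins related to lysozymes of protists, and the ilys genes encode invertebrate-type lysozymes. Most are known from the intestine, and several are known to respond to pathogens, to insulin signaling through the transcription factor DAF-16, to the p38 kinase PMK-1 or to the TGF-beta ligand DBL-1.

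Library totals ran from 20860822 to 22921602 counts, of which the 10 lysozyme genes took 0.129% to 0.261%. Transcript of atfs-1 averaged 3.09 ± 0.512 CPM (the count scaled to the TMM-adjusted library size) in the double mutant and 2.71 ± 2.01 CPM in atfs-1(null), against 53.7 ± 1.29 CPM in wildtype (SD, n = 3 each). Transcript of nhr-180 averaged 0.494 CPM in the double mutant, 0.337 CPM in nhr-180 and 4.62 CPM in atfs-1(null), against 3.71 CPM in wildtype. Wildtype replicate 2 and atfs-1(null) replicate 1 stood apart from the other libraries of their genotype on the second principal component, which held 20.5% of the variance. Because whole worms were extracted, fewer cells of a type and less RNA per cell cannot be told apart.

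The genes lys-1, lys-2 and lys-3 lie side by side on chromosome V of the WBcel235 assembly, whose coordinates matched those of the deposited table for every lysozyme gene. The gene lys-1 runs from 10277904 to 10279056 on the plus strand, and lys-2 (10280307 to 10281474) and lys-3 (10282100 to 10283544) follow on the minus strand, with gaps of 1250 and 625 bases and no protein-coding gene between them. A second row of lys genes lies on the minus strand of chromosome IV: lys-4 (11621429 to 11623174), lys-5 (11624252 to 11625582) and lys-6 (11626910 to 11627947), with gaps of 1077 and 1327 bases. The other members stand alone or beside other genes: lys-7 on chromosome V (3481432 to 3482600, minus strand), lys-8 on chromosome II (5586178 to 5587651, plus strand), lys-10 on chromosome IV (8332826 to 8333518, plus strand) and ilys-3 on chromosome IV (2464456 to 2465443, plus strand), 2234 bases from ilys-2. The annotated proteins hold 298 residues for LYS-1, 279 for LYS-2, 301 for LYS-3, 283 for LYS-7 and 286 for LYS-8, against 214 for LYS-4, 215 for LYS-5, 214 for LYS-6, 230 for LYS-10 and 139 for ILYS-3. The sources used here do not give how strand, or reads that match more than 1 gene, were treated in counting. Counts of neighbouring relatives, and of lys-8, whose end overlaps C17G10.13 on the opposite strand by 38 bases, are uncertain to that extent.

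The members differed widely in level. In TPM, lys-1 was the highest member in all 4 genotypes, with means of 1249 in the double mutant, 772 in nhr-180, 1133 in atfs-1(null) and 769 in wildtype, and lys-10 was the lowest in all 4, with means of 0.585 TPM in the double mutant, 0.175 TPM in nhr-180, 1.14 TPM in atfs-1(null) and 0.0501 TPM in wildtype. In wildtype, lys-1 was followed by lys-2 (316 ± 27.1 TPM), lys-4 (296 ± 27.4 TPM) and lys-8 (261 ± 20.1 TPM, SD, n = 3 each). Neighbours among these last genes overlapped between libraries, so that their order in wildtype is not resolved. The gene lys-7 came next at 20.0 ± 0.495 TPM, and lys-5, lys-6, lys-3 and ilys-3 lay between 3.30 and 0.630 TPM on average, each apart from its neighbour in all libraries. In the double mutant and in atfs-1(null), lys-7 stood near lys-4, with 244 ± 39.0 TPM for lys-7 beside 255.7 ± 36.5 TPM for lys-4 in the double mutant, and 246 ± 25.6 TPM beside 213 ± 59.8 TPM in atfs-1(null) (SD, n = 3 each). The order of lys-4 and lys-7 in these genotypes is not resolved, because their libraries overlapped.

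**Figure D1:**
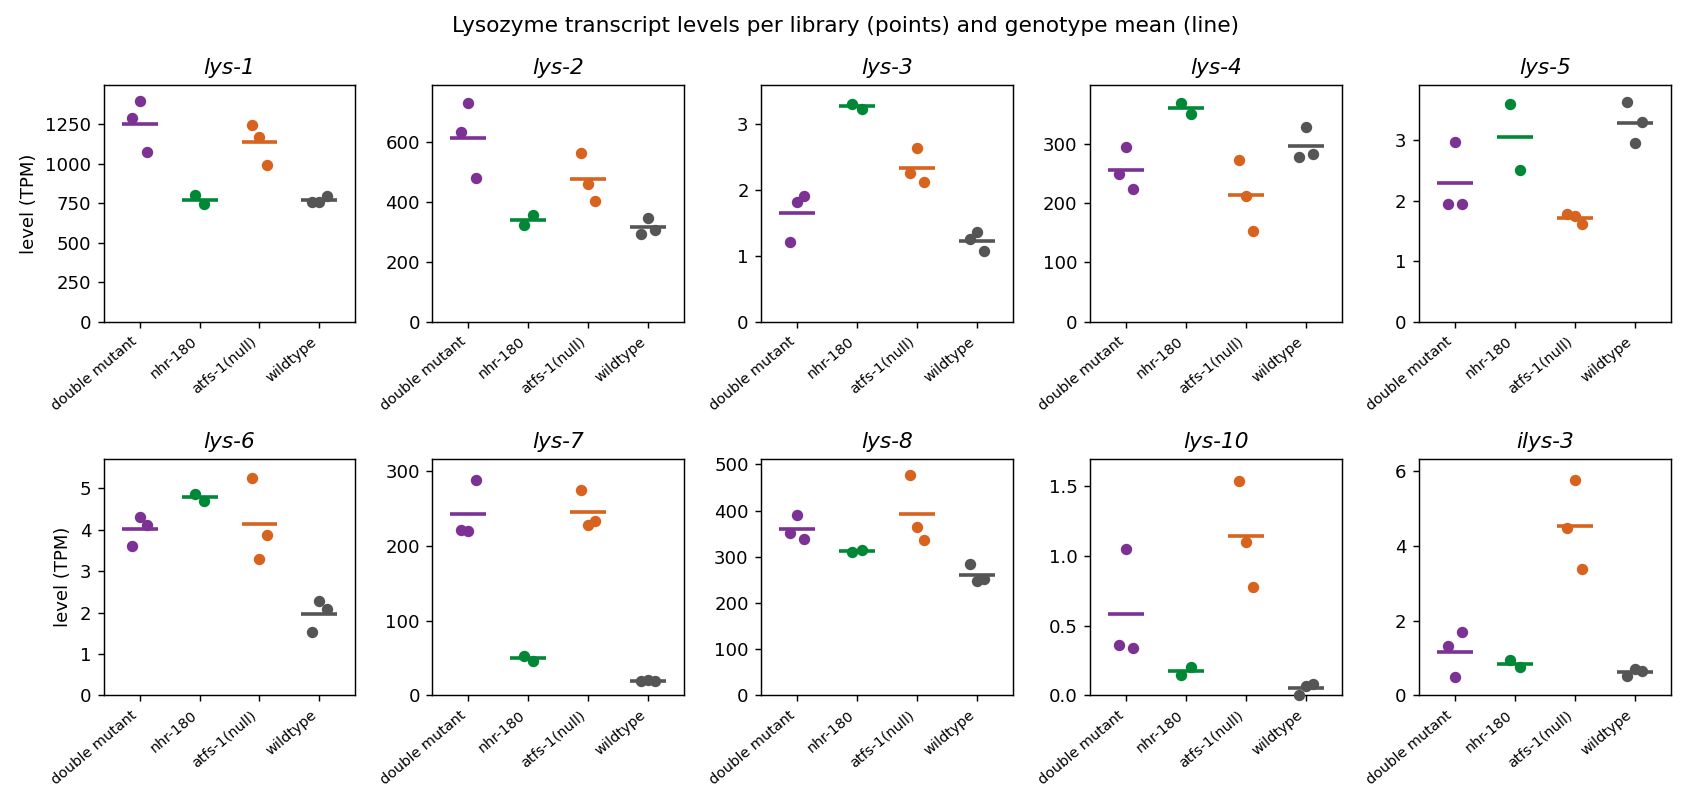
Level of each lysozyme gene in TPM (vertical axis, linear, own scale per panel) in every library of the double mutant, nhr-180, atfs-1(null) and wildtype, with bars at the group means. The lys-7 libraries lacking atfs-1 sit between 220.2 and 288 TPM, above those of nhr-180 at 45.7 and 53.4 TPM and those of wildtype at 19.7 to 20.6 TPM.

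The summed TPM of the 10 genes was 2733 ± 316 in the double mutant (SD, n = 3), 1845 ± 29.3 in nhr-180 (SD, n = 2), 2473 ± 358 in atfs-1(null) (SD, n = 3) and 1670 ± 33.7 in wildtype (SD, n = 3). The ratio of means was 1.64 for the double mutant over wildtype, 1.48 for atfs-1(null) over wildtype and 1.11 for nhr-180 over wildtype. The 5 highest genes, lys-1, lys-2, lys-4, lys-7 and lys-8, held between 99.3% and 99.7% of this sum in every library. The share of lys-7 in the sum was 9.10% in the double mutant, 2.68% in nhr-180 and 9.99% in atfs-1(null), against 1.20% in wildtype, while the share of lys-4 was 9.34% in the double mutant, 19.5% in nhr-180 and 8.50% in atfs-1(null), against 17.7% in wildtype. The share of lys-1 lay between 41.8% and 46.1% on average in all 4 genotypes.

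**Figure D2:**
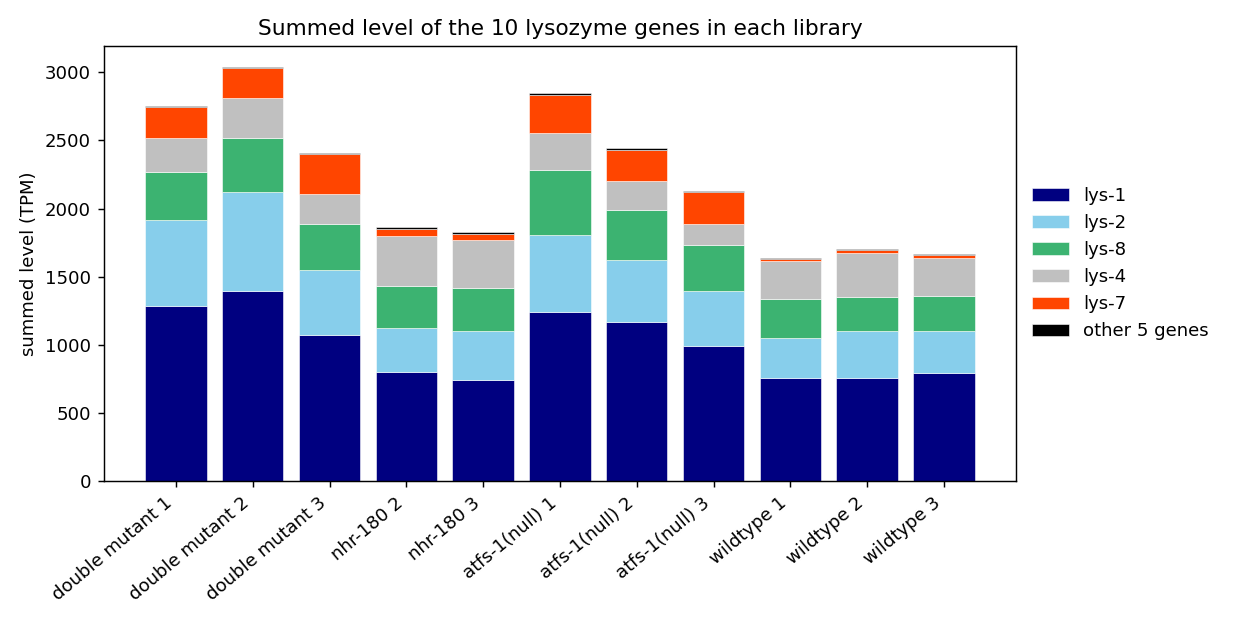
Summed TPM of the 10 lysozyme genes per library (stacked bars, linear axis from 0), divided into lys-1, lys-2, lys-8, lys-4, lys-7 and the other 5 genes together. Bars of the 6 libraries lacking atfs-1 reach from 2131 to 3040.0 TPM and those of the 5 other libraries from 1638 to 1866 TPM.

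A test for any difference over the 4 genotypes (edgeR's quasi-likelihood F test, Benjamini-Hochberg adjusted over 16013 genes, threshold 0.05) called 6 of the 10 genes, where 23.9% of all genes tested were called. Since lys-10 and ilys-3 reached this test only through libraries lacking atfs-1, where they were high, the count is not read against that share. The genes called were lys-7, which ranked 8th among all genes (adjusted p = 1.68e-06), ilys-3 (adjusted p = 0.00149), lys-3 (adjusted p = 0.00590), lys-10 (adjusted p = 0.00904), lys-6 (adjusted p = 0.0295) and lys-5 (adjusted p = 0.0302). The most abundant genes missed the threshold, lys-1 at an adjusted p of 0.0517, lys-2 at 0.0568, lys-4 at 0.105 and lys-8 at 0.219. The adjusted p-values of single genes below come from the same edgeR model.

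The first comparison, atfs-1(null) against wildtype, asks what loss of atfs-1 alone does. Of the 10 genes, 5 rose (lys-3, lys-6, lys-7, lys-10 and ilys-3), 1 fell (lys-5) and 4 were not called, where 14.3% of all genes tested were called, 7.54% as higher and 6.77% as lower. In CPM, all atfs-1(null) libraries lay above all wildtype libraries for 8 of the 10 genes, as for 16.3% of all genes tested, and below them for lys-5, as for 15.3% of all genes. The median log2 fold change of the members was 0.67, against 0.06 over all genes tested. The genes lys-10 and ilys-3 passed the filter on low counts through atfs-1(null) and double mutant libraries, not through any library of nhr-180 or wildtype, so they had to differ to be tested.

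The second comparison, nhr-180 against wildtype, asks what the nhr-180 mutation does where atfs-1 is intact. Of the 10 genes, 3 rose (lys-3, lys-6 and lys-7), none fell and 7 were not called, where 2.24% of all genes tested were called, 1.57% as higher and 0.662% as lower. The median log2 fold change of the members was 0.35, against -0.02 over all genes tested. The libraries did not overlap for 7 of the 10 genes, all higher in nhr-180, where 25% of all genes tested were separate and higher and 22.4% separate and lower. Among the 7 were lys-10 and ilys-3, both at few counts in these genotypes. They passed the filter on low counts only through libraries lacking atfs-1, so the count of 7 and the median are not read against all genes. Wildtype libraries are shared with the first comparison.

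Where atfs-1 was missing, the nhr-180 mutation gave 1 call. With atfs-1(null) as its control, the double mutant had lower ilys-3, and the other 9 genes were not called, where 0.443% of all genes tested were called, 0.312% as higher and 0.131% as lower. The libraries were separate for 2 genes, lys-3 and ilys-3, both lower in the double mutant, where 6.03% of all genes tested were separate and higher and 6.1% separate and lower. The median log2 fold change of the members was -0.09, against -0.00 over all genes tested, and its sign rests on 1 library: it was 0.14 without atfs-1(null) replicate 1, -0.21 without replicate 2, -0.18 without replicate 3 and -0.05 without double mutant replicate 1.

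Loss of atfs-1 in the nhr-180 background was read from the double mutant against nhr-180. In that comparison lys-7 rose, lys-3 fell and the remaining 8 genes were not called, where 18.5% of all genes tested were called, 10.3% as higher and 8.21% as lower. The median was 0.18 on the log2 scale, against -0.01 over all genes tested. It was 0.10 without double mutant replicate 1, 0.07 without double mutant replicate 3 and 0.05 with only these genotypes fitted. The libraries were separate and higher for 4 members (28.2% of all genes) and separate and lower for 3 (26.7% of all genes). With both mutations set against wildtype, lys-1, lys-2, lys-6, lys-7 and lys-10 rose in the double mutant, no member fell and 5 were not called, where 16.3% of all genes tested were called, 10.1% as higher and 6.27% as lower. The median there was 0.64 on the log2 scale, against 0.02 over all genes tested, and the libraries were separate and higher for 6 members (24.1% of all genes) and separate and lower for 1 (19.8% of all genes). The genes lys-10 and ilys-3 passed the filter on low counts only through libraries lacking atfs-1. The medians and counts of separate members in both comparisons, and the calls against wildtype, are therefore not read against all genes. Neither gene was among the 2 of 10 called in the double mutant against nhr-180, a share near that of all genes.

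**Figure D3:**
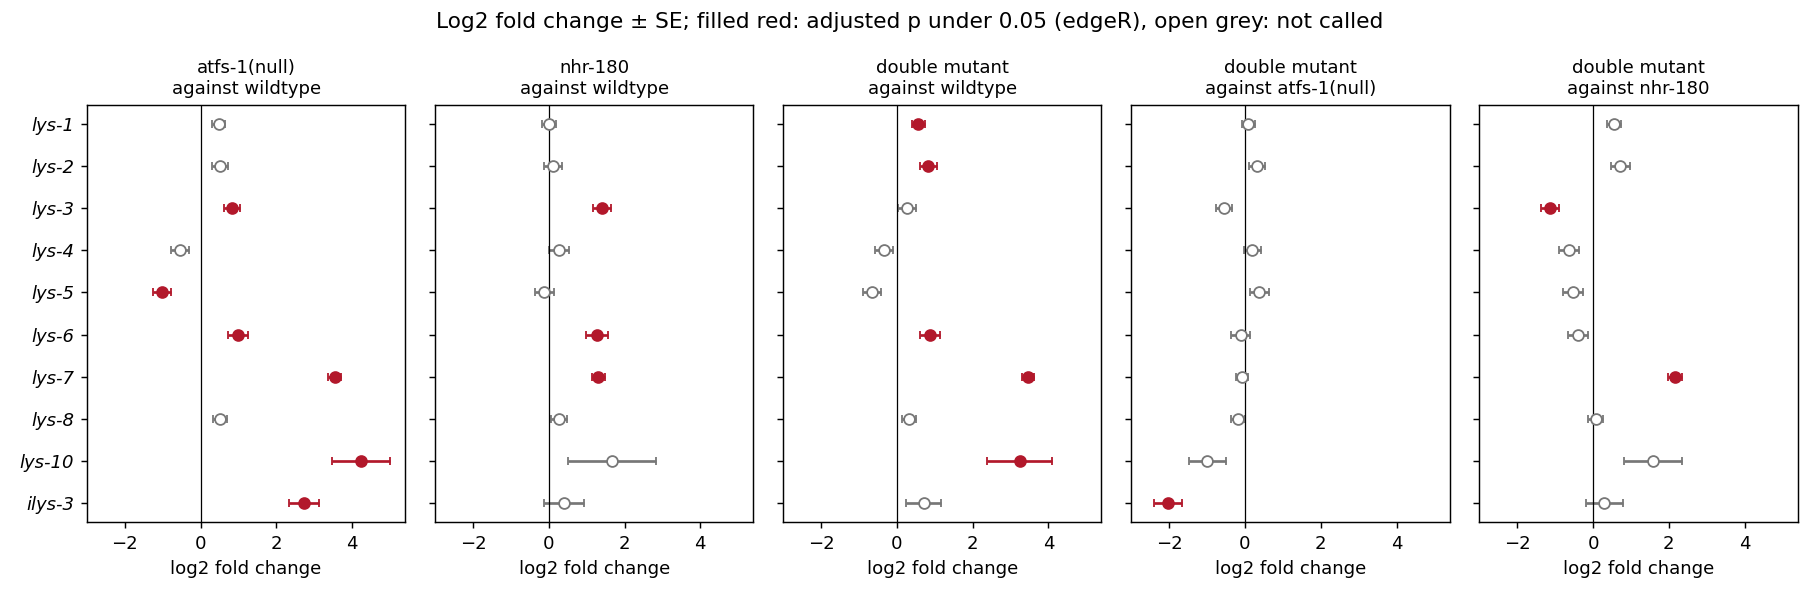
Log2 fold change with standard error (horizontal axis) of each lysozyme gene in the 5 pairwise comparisons, from the edgeR model; filled red points passed the threshold. The points of lys-7 stand at 3.53, 3.46, 2.15 and 1.31 in the comparisons where it rose and at -0.07 in the double mutant set against atfs-1(null).

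The smallest adjusted p-values among the members were those of lys-7, a gene known as a DAF-16 target and as one that responds to Serratia marcescens. It had 222, 220.2 and 288 TPM in the double mutant, 53.4 and 45.7 TPM in nhr-180, 275, 228 and 234 TPM in atfs-1(null), and 19.7, 20.6 and 19.8 TPM in wildtype. The libraries thus fell at 3 separate levels: both genotypes lacking atfs-1 overlapped at the top, nhr-180 lay below them and wildtype lay lowest. In counts the lowest library of the top level held 3919 reads of lys-7 and the highest wildtype library 377, so counting error is small beside these gaps. The gene rose 11.6-fold in atfs-1(null) over wildtype (log2 3.53 ± 0.17, SE, adjusted p = 1.03e-06) and 10.997-fold in the double mutant over wildtype (log2 3.46 ± 0.17, adjusted p = 1.25e-06). It rose 2.47-fold in nhr-180 over wildtype (log2 1.31 ± 0.17, adjusted p = 0.00272) and 4.45-fold in the double mutant over nhr-180 (log2 2.15 ± 0.18, adjusted p = 0.000148). The double mutant and atfs-1(null) differed by log2 -0.07 ± 0.15 (adjusted p = 0.990). These 4 calls held under all 20 alternative settings tried.

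The effect of nhr-180(cmh19) on lys-7 differed with atfs-1. The interaction, which takes the difference between the double mutant and atfs-1(null) and subtracts the difference between nhr-180 and wildtype, was -1.38 ± 0.23 on the log2 scale (adjusted p = 0.0167). Over all genes tested 1.14% were called in this contrast, 0.275% as higher and 0.862% as lower, and among the members 2 of 10 were called, lys-7 and lys-3, both lower. The median interaction of the members was -0.91, against 0.01 over all genes tested. That median includes lys-10 (-2.65) and ilys-3 (-2.44), neither of them called. Both passed the filter on low counts only through libraries lacking atfs-1, so the median is not read against that of all genes. The call on lys-7 was lost without double mutant replicate 1 (adjusted p = 0.0606) or 2 (0.0624), wildtype replicate 1 (0.0524) or 3 (0.0706), or nhr-180 replicate 2 (0.0969) or 3 (0.0860), with values between -1.46 and -1.22 over all libraries left out in turn.

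**Figure D4:**
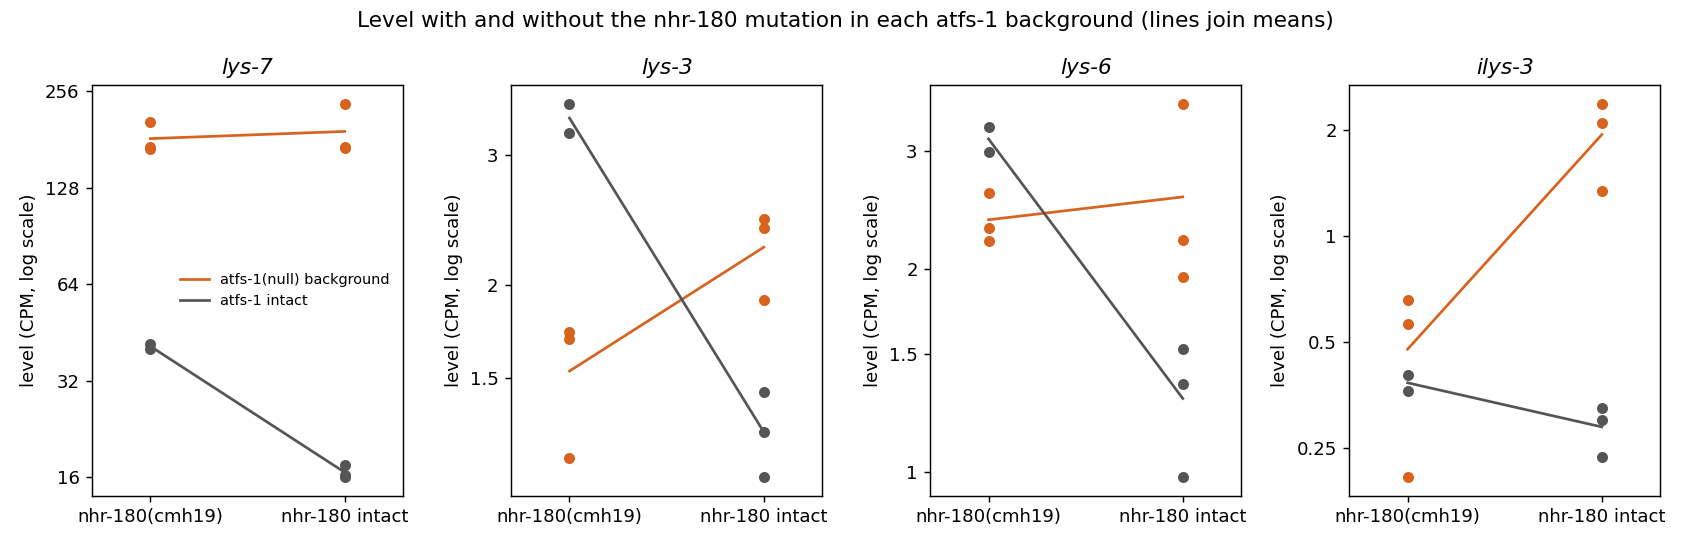
Level in CPM (log axis) of lys-7, lys-3, lys-6 and ilys-3 in every library with nhr-180(cmh19) (left in each panel) and with nhr-180 intact (right), in the atfs-1(null) background (orange) and with atfs-1 intact (grey); lines join group means. Lines of lys-7 and lys-3 have different slopes by the interaction test, with values of -1.38 and -1.96 on the log2 scale, while those of lys-6 (-1.39) and ilys-3 (-2.44) did not pass it.

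The row of lys-1, lys-2 and lys-3 held both the most abundant members and a scarce one, and these did not share a pattern. The level of lys-1, a gene induced on Serratia marcescens, was 1285, 1393 and 1069.9 TPM in the double mutant, 799 and 745 TPM in nhr-180, 1242, 1165 and 992 TPM in atfs-1(null), and 756, 756 and 796 TPM in wildtype. All libraries lacking atfs-1 lay above all libraries with atfs-1, and nhr-180 overlapped wildtype. The rise of lys-1 passed the threshold in the double mutant over wildtype (log2 0.57 ± 0.17, SE, adjusted p = 0.0422), and its values were 0.48 ± 0.17 in atfs-1(null) over wildtype (adjusted p = 0.0851) and 0.56 ± 0.19 in the double mutant over nhr-180 (adjusted p = 0.0644). The calls on lys-1 depended on the setting. Without any 1 wildtype or nhr-180 library, double mutant replicate 1 or 2, or atfs-1(null) replicate 2, the call in the double mutant over wildtype was lost (adjusted p 0.0551 to 0.169), as it was with DESeq2 size factors (0.0548) or no filter (0.0677). In turn, limma on the TPM values called lys-1 in atfs-1(null) over wildtype (adjusted p = 0.0134) and in the double mutant over nhr-180 (adjusted p = 0.00787). By counts it was also called in atfs-1(null) over wildtype without atfs-1(null) replicate 3 (adjusted p = 0.0457), and in the double mutant over nhr-180 without atfs-1(null) replicate 1 (0.0413) or 3 (0.0469) or double mutant replicate 3 (0.0476), or by DESeq2's Wald test (0.0459).

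The neighbour lys-2, which is known to depend on PMK-1 signaling, had 634, 731 and 478 TPM in the double mutant, 321 and 357 TPM in nhr-180, 563, 459 and 404 TPM in atfs-1(null), and 294, 346 and 307 TPM in wildtype. In TPM every library lacking atfs-1 lay above every library with it, as for lys-1, but in CPM atfs-1(null) overlapped nhr-180, with 303 CPM in atfs-1(null) replicate 3 against 325 CPM in nhr-180 replicate 3. The gene rose in the double mutant over wildtype (log2 0.83 ± 0.22, SE, adjusted p = 0.0293). That call was lost without double mutant replicate 1 (adjusted p = 0.0842) or 2 (0.126), or wildtype replicate 1 (0.0833), 2 (0.0552) or 3 (0.107). The value of lys-2 was log2 0.51 ± 0.22 in atfs-1(null) over wildtype (adjusted p = 0.152, and 0.0438 by limma on the TPM values). It was 0.72 ± 0.25 in the double mutant over nhr-180 (adjusted p = 0.0731), where it was called by limma on the TPM values (0.0129), by DESeq2's Wald test (0.0486) and, by counts, without atfs-1(null) replicate 1 (0.0416) or double mutant replicate 3 (0.0450).

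The gene lys-3, next to lys-2 and far less abundant, was highest in nhr-180 alone. It had 1.21, 1.81 and 1.91 TPM in the double mutant, 3.31 and 3.22 TPM in nhr-180, 2.26, 2.63 and 2.11 TPM in atfs-1(null), and 1.25, 1.36 and 1.08 TPM in wildtype, from 22 to 78 counts per library. Both nhr-180 libraries lay above all others, atfs-1(null) came next, and the double mutant overlapped wildtype. The gene rose 2.65-fold in nhr-180 over wildtype (log2 1.41 ± 0.24, SE, adjusted p = 0.0130) and 1.77-fold in atfs-1(null) over wildtype (log2 0.83 ± 0.22, adjusted p = 0.0305). Its level in the double mutant fell below that in nhr-180 (log2 -1.14 ± 0.23, adjusted p = 0.00928) and stood at log2 -0.56 ± 0.22 against atfs-1(null) (adjusted p = 0.455) and 0.27 ± 0.23 against wildtype (adjusted p = 0.441). Each mutation alone thus went with a higher level, and both together did not pass the test against wildtype.

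The interaction for lys-3 was -1.96 ± 0.32 on the log2 scale (SE, adjusted p = 0.0167). It was lost without wildtype replicate 3 (adjusted p = 0.0706) and without nhr-180 replicate 2 (0.0692) or 3 (0.106). The same libraries ended the call in nhr-180 over wildtype, at adjusted p-values of 0.0807 for wildtype replicate 3, 0.0969 for nhr-180 replicate 2 and 0.136 for nhr-180 replicate 3. Leaving out nhr-180 replicate 3 also ended the call in the double mutant against nhr-180 (adjusted p = 0.0901). The call in atfs-1(null) over wildtype was lost without atfs-1(null) replicate 1 (adjusted p = 0.0693) or 2 (0.0660), wildtype replicate 1 (0.0778) or 3 (0.131), or nhr-180 replicate 2 (0.0500158) or 3 (0.0500451), and also without a filter (0.0647) or with only these genotypes fitted (0.0818).

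In the second row of genes, lys-4 and lys-6 are neighbours with lys-5 between them, and the calls differed among them. The abundant member lys-4 had 249, 295 and 223 TPM in the double mutant, 369 and 351 TPM in nhr-180, 273, 213 and 154 TPM in atfs-1(null), and 278, 328 and 283 TPM in wildtype. Both nhr-180 libraries lay above all others, and the other genotypes overlapped in part. No pairwise comparison called lys-4, the lowest values being -0.63 ± 0.26 on the log2 scale in the double mutant against nhr-180 (SE, adjusted p = 0.116) and -0.55 ± 0.24 in atfs-1(null) against wildtype (adjusted p = 0.1497). Without atfs-1(null) replicate 1, lys-4 was called in the double mutant against nhr-180 (adjusted p = 0.0335, and 0.0440 with only those genotypes fitted) and in atfs-1(null) against wildtype (adjusted p = 0.0163).

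The scarce gene lys-5 had 1.94, 2.98 and 1.95 TPM in the double mutant, 3.61 and 2.51 TPM in nhr-180, 1.78, 1.75 and 1.62 TPM in atfs-1(null), and 3.63, 2.96 and 3.30 TPM in wildtype. In TPM and in CPM its atfs-1(null) libraries lay below those of nhr-180 and wildtype. Those of the double mutant lay above them in TPM and overlapped them in CPM. The gene fell in atfs-1(null) against wildtype (log2 -1.03 ± 0.24, SE, adjusted p = 0.0174), the only fall among the members against wildtype that passed the test. The call was lost without atfs-1(null) replicate 3 (adjusted p = 0.0604), wildtype replicate 1 (0.0574) or wildtype replicate 3 (0.0602). Against wildtype, lys-5 in the double mutant stood at log2 -0.65 ± 0.24 (adjusted p = 0.0852, and 0.0450 without double mutant replicate 2).

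The third gene of that row, lys-6, had 3.62, 4.30 and 4.11 TPM in the double mutant, 4.87 and 4.70 TPM in nhr-180, 5.26, 3.30 and 3.87 TPM in atfs-1(null), and 1.54, 2.29 and 2.09 TPM in wildtype. Every mutant library lay above every wildtype library. The gene rose 1.99-fold in atfs-1(null) (log2 0.99 ± 0.26, SE, adjusted p = 0.0297), 2.42-fold in nhr-180 (log2 1.28 ± 0.29, adjusted p = 0.0458) and 1.84-fold in the double mutant (log2 0.88 ± 0.27, adjusted p = 0.0450), each against wildtype. These 3 comparisons share the wildtype libraries, whose counts of lys-6 were 21, 33 and 27. The rises in nhr-180 and in the double mutant were lost without any 1 double mutant, nhr-180 or wildtype library or atfs-1(null) replicate 3, at adjusted p-values of 0.0602 to 0.293 for nhr-180 and 0.0527 to 0.140 for the double mutant. The rise in atfs-1(null) was lost without atfs-1(null) replicate 1 (adjusted p = 0.0952), double mutant replicate 2 (0.0507), or wildtype replicate 1 (0.0954) or 3 (0.0908), or with only these genotypes fitted (0.106). With the replicate number as a block, all 3 calls on lys-6 were lost, at adjusted p-values of 0.0518 in atfs-1(null), 0.0522 in nhr-180 and 0.0659 in the double mutant. With DESeq2 size factors the rises in nhr-180 (0.0502) and in the double mutant (0.0519) were lost, and without a filter that in the double mutant (0.0694). The interaction for lys-6 was -1.39 ± 0.38 (adjusted p = 0.130).

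The gene lys-8, abundant in all genotypes and known to depend on DBL-1 signaling, was called in no comparison. It had 353, 391 and 339 TPM in the double mutant, 309 and 315 TPM in nhr-180, 476, 364 and 336 TPM in atfs-1(null), and 284, 247 and 252 TPM in wildtype. Every mutant library lay above every wildtype library. The values against wildtype were 0.33 ± 0.19 on the log2 scale in the double mutant (SE, adjusted p = 0.243), 0.27 ± 0.21 in nhr-180 (adjusted p = 0.515) and 0.51 ± 0.19 in atfs-1(null) (adjusted p = 0.0917). Limma on the TPM values called lys-8 in atfs-1(null) over wildtype (adjusted p = 0.0181) and in the double mutant over wildtype (adjusted p = 0.0353), and by counts it was called in atfs-1(null) over wildtype without atfs-1(null) replicate 3 (adjusted p = 0.0486).

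The rarest member was lys-10, an intronless gene with 5, 15 and 4 counts in the double mutant, 2 and 3 in nhr-180, 24, 15 and 10 in atfs-1(null), and 0, 1 and 1 in wildtype. All atfs-1(null) libraries, and all double mutant libraries, lay above all nhr-180 and wildtype libraries. Summed over libraries, 49 counts in atfs-1(null) against 2 in wildtype gave a depth-adjusted ratio of 21.9 (95% exact interval 5.74 to 186), and 24 in the double mutant against 2 in wildtype gave 11.01 (2.73 to 96.1). The intervals cover counting error only. The model called lys-10 in atfs-1(null) over wildtype (adjusted p = 0.00449) and in the double mutant over wildtype (adjusted p = 0.0276), the second lost without double mutant replicate 2 (0.102) or any 1 wildtype library (0.0708 to 0.0767), and by limma with a TPM pseudocount of 1 (0.0563). Since lys-10 passed the filter on low counts only through atfs-1(null) and double mutant libraries, these calls are descriptions. In nhr-180 over wildtype the ratio was 3.54 with an interval of 0.579 to 37.1, so no difference was detectable at this depth.

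The invertebrate-type lysozyme ilys-3, known from the pharynx and intestine and for activity against Gram-positive bacteria, was high in atfs-1(null) alone. It had 1.32, 0.490 and 1.69 TPM in the double mutant, 0.939 and 0.750 TPM in nhr-180, 4.49, 5.77 and 3.38 TPM in atfs-1(null), and 0.525, 0.698 and 0.668 TPM in wildtype. The 3 atfs-1(null) libraries lay above all 8 others. The gene rose 6.68-fold in atfs-1(null) over wildtype (log2 2.74 ± 0.40, SE, adjusted p = 0.00119), from 137 summed counts against 18. It passed the filter on low counts only through atfs-1(null) and double mutant libraries, so this call is a description. It fell in the double mutant set against atfs-1(null) (log2 -2.03 ± 0.36, adjusted p = 0.0425), with 32 summed counts against 137 and a depth-adjusted ratio of 0.240 (95% exact interval 0.158 to 0.355, for counting error only). That fall is less firm: it was lost without atfs-1(null) replicate 2 or any 1 library of the double mutant, nhr-180 or wildtype, at adjusted p-values of 0.0561 to 0.181, when only the genotypes compared were fitted (adjusted p = 0.216), with the replicate number as a block (0.0852) and by limma with a TPM pseudocount of 0.1 (0.0689). Against wildtype, ilys-3 in the double mutant stood at log2 0.71 ± 0.46 (adjusted p = 0.318), and its interaction was -2.44 ± 0.65 (adjusted p = 0.121).

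A further 6 genes carry lysozyme names. Of these, ilys-1, ilys-6 and lys-9 did not reach the filter on low counts. The abundant ilys-5 had 401 ± 47.2 TPM in the double mutant and 333 ± 131 TPM in atfs-1(null), against 394 ± 14.8 TPM in wildtype (SD, n = 3 each), and was called in no comparison. The gene ilys-4 rose in atfs-1(null) over wildtype (log2 0.67 ± 0.15, SE, adjusted p = 0.0141); it lies within atic-1 on the opposite strand, so its counts are uncertain without the strand setting. Beside ilys-3 on the chromosome, ilys-2 had 24, 20 and 11 counts in atfs-1(null) and 2, 5 and 5 in wildtype, with log2 2.00 ± 0.71 (adjusted p = 0.0868).

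Other genes of bacterial defence were counted in the same way. Of all genes tested, as given above, 14.3% were called in atfs-1(null) against wildtype, 2.24% in nhr-180 against wildtype, 0.443% in the double mutant set against atfs-1(null), 18.5% in the double mutant against nhr-180, 16.3% in the double mutant against wildtype and 1.14% in the interaction. The caenopores, encoded by spp genes, make pores in bacterial membranes. Of 21 spp genes tested, 3 rose and none fell in atfs-1(null) over wildtype, 1 rose in nhr-180 over wildtype, none was called by edgeR in the double mutant set against atfs-1(null) (1 at an unadjusted p under 0.05), 4 fell in the double mutant against nhr-180, and 1 rose and 1 fell in the double mutant against wildtype. The 3 of 21 in atfs-1(null) against wildtype and the 4 of 21 in the double mutant against nhr-180 are near the shares of all genes called in either direction. By direction, 7.54% of all genes were called higher in the first and 8.21% lower in the second. The gene spp-2 rose by log2 2.53 ± 0.27 in nhr-180 (SE, adjusted p = 0.000796) and by 1.77 ± 0.25 in atfs-1(null) (adjusted p = 0.000961) over wildtype, and its interaction was -2.85 ± 0.36 (adjusted p = 0.00339). Levels of spp-2 were 53.3 ± 5.41 CPM in the double mutant (SD, n = 3), 113 ± 0.505 CPM in nhr-180 (SD, n = 2), 66.5 ± 27.7 CPM in atfs-1(null) (SD, n = 3) and 19.5 ± 2.27 CPM in wildtype (SD, n = 3). By their means the genotypes stood in the same order for lys-3.

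Known DAF-16 targets other than lys-7 were also counted, beside the same shares of all genes as for the caenopores. Of 12 tested, 9 rose and none fell in atfs-1(null) over wildtype, with a median of 1.29 on the log2 scale, against 0.06 over all genes tested; 3 rose in nhr-180 over wildtype; 1 fell in the double mutant set against atfs-1(null); 3 rose in the double mutant over nhr-180; and 6 rose in the double mutant over wildtype. The interaction called 3 of them, all lower: dod-3 (-5.03 ± 0.45, SE, adjusted p = 0.000507), the metallothionein mtl-1 (-4.22 ± 0.44, adjusted p = 0.00122) and the glyoxylate cycle enzyme icl-1 (-1.59 ± 0.31, adjusted p = 0.0352). The superoxide dismutase sod-3, a standard DAF-16 reporter, rose by 0.72 ± 0.17 in atfs-1(null) over wildtype (adjusted p = 0.0179), a smaller value than the 3.53 of lys-7. Values of the list in that comparison ran from -0.09 to 6.17, so lys-7 did not exceed all of them.

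Among 29 regulators of intestinal immunity, 3 rose in atfs-1(null) over wildtype, 1 rose in nhr-180 over wildtype, and 4 rose and 1 fell in the double mutant over wildtype, and edgeR called none in the other pairwise comparisons (1 gene at an unadjusted p under 0.05 in the double mutant against its atfs-1(null) control and 6 against nhr-180). The 3 of 29 in atfs-1(null) and the 5 of 29 in the double mutant, each against wildtype, are below or near the shares of all genes called in either direction. By direction, 7.54% of all genes were called higher in atfs-1(null) and 10.1% in the double mutant. The transcription factor gene pqm-1 rose in atfs-1(null) (log2 1.10 ± 0.14, SE, adjusted p = 0.000528), in nhr-180 (0.74 ± 0.15, adjusted p = 0.0349) and in the double mutant (0.56 ± 0.14, adjusted p = 0.0199) over wildtype, and its interaction was -1.28 ± 0.21 (adjusted p = 0.0158), the only call of the list there. The SMAD genes sma-2 and sma-4, which carry the DBL-1 signal, rose in atfs-1(null) by 0.93 ± 0.16 (adjusted p = 0.00385) and 0.79 ± 0.15 (adjusted p = 0.00526). Other genes of DBL-1 signaling in the list were not called in that comparison. Transcripts of daf-16, pmk-1 and hlh-30 were called in no comparison, and the intestinal GATA factor gene elt-2 fell in the double mutant against wildtype (-0.42 ± 0.12, adjusted p = 0.0407).

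Levels of tissue markers were set beside these results, and their part in them was not tested. Of 13 intestine markers, 1 rose (cpr-1) and 2 fell (act-5 and pho-1) in atfs-1(null) against wildtype and likewise 1 and 2 in the double mutant against wildtype, and none was called in the other comparisons. Their summed level was 8703 ± 991 CPM in the double mutant, 8339 ± 172 CPM in nhr-180 (n = 2), 8519 ± 535 CPM in atfs-1(null) and 8395 ± 213 CPM in wildtype (SD, n = 3 unless given), and none was at 0 in any group. Of 12 pharynx markers, 3 rose and 1 fell in atfs-1(null) over wildtype, 2 rose and 1 fell in the double mutant against nhr-180, and 2 rose and 2 fell in the double mutant against wildtype. Of 10 body wall muscle markers 1 fell in atfs-1(null) and 1 fell in the double mutant against wildtype, of 9 hypodermis markers 1 fell in atfs-1(null) against wildtype and 1 rose in the double mutant set against atfs-1(null), and of 10 neuron markers 1 rose in atfs-1(null) over wildtype and 1 rose in the double mutant over each of nhr-180 and wildtype. No marker of these 4 tissues was called elsewhere among the pairwise comparisons.

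Markers of the germline and genes of the molting cycle were counted as well. Of 10 oocyte and germline markers, 1 rose in atfs-1(null) over wildtype, where 7.54% of all genes were called higher. In the double mutant 6 of these markers rose over nhr-180 (10.3% of all genes called higher) and 7 over wildtype (10.1%). With the double mutant set against atfs-1(null), edgeR called none of these markers, and 7 had an unadjusted p under 0.05. There 9 of the 10 values were positive, with a median of 0.72 on the log2 scale. Their summed level was 2877 ± 906 CPM in the double mutant, 1600.5 ± 242 CPM in nhr-180 (n = 2), 2005 ± 511 CPM in atfs-1(null) and 1664 ± 451 CPM in wildtype (SD, n = 3 unless given). None of 8 sperm markers was called by edgeR in any pairwise comparison; 2 had an unadjusted p under 0.05 in nhr-180 against wildtype and none in the other pairs. Of 10 molting cycle genes, 4 fell in atfs-1(null) against wildtype, 1 fell in nhr-180 against wildtype, 2 rose and 3 fell in the double mutant against nhr-180, and 4 fell in the double mutant against wildtype. Their summed level was 2992 ± 448 CPM in the double mutant, 3384 ± 251 CPM in nhr-180 (n = 2), 2442 ± 122 CPM in atfs-1(null) and 4675 ± 717 CPM in wildtype (SD, n = 3 unless given). The part of these differences in the lysozyme results was not tested.

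Genes with the most similar profile were read from the correlation of log2 CPM over the 11 libraries, among 6467 named genes with a mean of at least 5 CPM. The libraries share their genotypes, so these are descriptions. Most like lys-7 were daao-1 (Pearson r = 0.99), far-3 (0.98) and epg-6 (0.98). Mean levels of far-3 were 147 CPM in the double mutant, 8.07 CPM in nhr-180 and 120.5 CPM in atfs-1(null), against 3.26 CPM in wildtype. Most like ilys-3 were nmad-1 (0.90), emre-1 (0.89) and xbp-1 (0.87), and most like lys-3 were zip-10 (0.92), math-24 (0.90) and dod-22 (0.89). Mean levels of zip-10 were 5.17 CPM in the double mutant, 11.04 CPM in nhr-180 and 6.78 CPM in atfs-1(null), against 4.58 CPM in wildtype.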

How the data were processed

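The authors counted reads per gene with featureCounts 1.5.2, as the submitters' processing notes say, and deposited these raw counts. They also deposited TPM values, corrected for gene length, for the 18798 genes whose counts summed to 10 or more. Libraries were strand-specific per the labels' protocols; aligner and strand setting: not given in the sources used here. Total counts of 20860822 to 22921602 per library make counting error small for abundant genes and large for lys-10. Of the gene identifiers, 46920 were found in WBcel235.

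Low counts were removed by edgeR's filterByExpr, leaving 16013 genes, and library sizes were adjusted by TMM. A quasi-likelihood model with 1 mean per genotype (edgeR 4.0.16, R 4.3.3) was fitted to all 11 libraries, with a common biological coefficient of variation of 21.7%. Two-sided p-values were adjusted by Benjamini-Hochberg over all genes, with a threshold of 0.05. Standard errors are the log2 fold change over the square root of F. Prior count for log2 CPM was 2.

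Alternatives were DESeq2 size factors, no filter, DESeq2 1.42.0, only the genotypes compared, the replicate number as a block, limma 3.58.1 on log2(TPM + 1) or log2(TPM + 0.1) filtered at 1 TPM in 2 libraries or unfiltered, each library left out, and wildtype 2 with atfs-1(null) 1 left out. The models were tested on simulated data, with changes planted only in genes of higher level and only for pairwise comparisons. That test covered neither the interaction nor the scarce members. The members and lists were chosen with earlier results of these data known. Named genes were all 10 members, list genes called in a comparison, 5 regulators, atfs-1, nhr-180 and the 3 genes most like each of the 3 members with the largest F. A planned search of promoters was not run.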

Additional observations from a re-analysis of the deposited data

Results flagged for a closer look

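The effect of nhr-180(cmh19) differed with the atfs-1 background for lys-3 and lys-7, by a test of the difference itself. The interaction for lys-3 was -1.96 on the log2 scale (adjusted p = 0.0167, edgeR): nhr-180(cmh19) went with a difference of -0.56 where atfs-1 was missing and of 1.41 where it was intact. For lys-7 the interaction was -1.38 (adjusted p = 0.0167, edgeR), with differences of -0.07 where atfs-1 was missing and 1.31 where it was intact. Neither call held under every library left out, though both values kept their sign. Those of lys-3 ran from -2.07 to -1.80 and those of lys-7 from -1.46 to -1.22. With 1 library left out, the call on lys-3 was lost for 3 libraries (edgeR adjusted p 0.0692 to 0.106). That on lys-7 was lost for 6 (0.0524 to 0.0969).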

How the results depend on the processing

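Under the other settings, all log2 fold changes of the members that were called kept their direction. Of the 60 log2 fold changes, the alternatives other than leaving out a library gave 473 values that kept their side of the threshold, 24 newly called, 17 no longer called and 10 of the other sign; leaving out each library gave 564, 10, 70 and 16. The count of lysozyme genes called in atfs-1(null) against wildtype was 6, fell to 3 with only the genotypes compared, and lay between 3 and 7 with libraries left out. In nhr-180 against wildtype it was 3 and lay between 1 and 3 with libraries left out. For the double mutant set against atfs-1(null) it was 1, was 0 with only the genotypes compared, with the replicate block and with a TPM pseudocount of 0.1, and lay between 0 and 1 with libraries left out. For the double mutant against nhr-180 it was 2, was 4 with DESeq2's Wald test and with all 3 TPM settings, was 5 without wildtype 2 and atfs-1(null) 1, and lay between 1 and 5 with libraries left out. For the double mutant against wildtype it was 5, was 3 with DESeq2 size factors and without a filter, and lay between 1 and 5. For the interaction it was 2 and lay between 0 and 2. The cause was not tested.

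Values of uncalled members changed sign as follows. In nhr-180 against wildtype, lys-1 was -0.000759 with DESeq2 size factors and -0.000758 with its Wald test. With libraries left out, lys-1 lay between -0.029 and 0.041, lys-2 between -0.060 and 0.265 and lys-5 between -0.299 and 0.049 there. For the double mutant set against atfs-1(null), lys-6 was 0.186, lys-7 0.091 and lys-8 0.066 without wildtype 2 and atfs-1(null) 1. With single libraries left out, the ranges there were -0.276 to 0.186 for lys-6, -0.155 to 0.091 for lys-7, -0.324 to 0.066 for lys-8, -0.037 to 0.239 for lys-1 and -0.026 to 0.506 for lys-4. In the double mutant against nhr-180, lys-8 was -0.029 with the replicate block and lay between -0.032 and 0.168 with libraries left out. In the interaction, lys-4 was 0.00754 and 0.00804 in the TPM settings, 0.093 without wildtype 2 and atfs-1(null) 1 and between -0.309 and 0.224 with libraries left out, and lys-1 lay between -0.046 and 0.236.

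The labels name no shared day behind a replicate number. Over the 15 same-numbered pairs the correlation of deviations ran from -0.41 to 0.61, over 0.1 in 5 pairs, and 5 of 11 libraries correlated best with their own number. The block ended the 3 calls on lys-6 and the fall of ilys-3 in the double mutant set against atfs-1(null). With the number as a block, 5 lysozyme genes were called in atfs-1(null) against wildtype, 2 in nhr-180 against wildtype, 0 in the double mutant set against atfs-1(null), 2 in the double mutant against nhr-180, 4 in the double mutant against wildtype and 2 in the interaction. Over all genes the block gave 695 calls in nhr-180 against wildtype, against 358 without it.

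Counts of calls over all genes also moved. In nhr-180 against wildtype, DESeq2's Wald test gave 907 and leaving out both wildtype 2 and atfs-1(null) 1 gave 555. With the double mutant set against atfs-1(null), the count was 71, against 241 by the Wald test, 150 without a filter, 17 with only the genotypes compared, 113 by TPM without a filter and 982 without the 2 libraries. For the double mutant against nhr-180 it was 2961 and 4643 without them, for the interaction 182, 488 by the Wald test and 482 without them, and for atfs-1(null) against wildtype 2291, and 1161 with only the genotypes compared. On the TPM scale the median of all genes was 0.11 in atfs-1(null) against wildtype, 0.11 in the double mutant against nhr-180 and 0.13 in the double mutant against wildtype. The members' median by TPM with a pseudocount of 1 was 0.58 in atfs-1(null) against wildtype and 0.52 in the double mutant against wildtype, below the 0.67 and 0.64 by counts. In nhr-180 against wildtype it was 0.22, against 0.35 by counts, and in the interaction -0.49, against -0.91. With single libraries left out, counts over all genes ran from 1132 to 2408 in atfs-1(null) against wildtype, from 75 to 1042 in nhr-180 against wildtype, from 27 to 812 in the double mutant set against atfs-1(null), from 437 to 4332 in the double mutant against nhr-180, from 1121 to 4069 in the double mutant against wildtype and from 65 to 456 in the interaction, so the shares of all genes called move as much. Depth limits lys-3, lys-5, lys-6, lys-10 and ilys-3, whose counts per library were below 100.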
